A study of Rattus norvegicus with 6 samples.

Results

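The mast cell genes were a group of 10 genes that mark mast cells or carry out their work, and they were taken from the table of 17833 genes by gene symbol. All 10 symbols were present in the table (Cpa3, Cma1, Tpsb2, Tpsab1, Hdc, Ms4a2, Fcer1a, Kit, Gata2 and Hpgds), and all 10 had enough signal to be tested. Mast cells are granulocytes that arise in the bone marrow and mature in tissues, where they lie along blood vessels and nerves. They store proteases, histamine and heparin in granules, carry a receptor for IgE on their surface and depend on the growth factor receptor KIT to survive. When the IgE receptor or other receptors are triggered, the granules are released and prostaglandin D2 and leukotrienes are newly made. In vessel walls, mast cells are known for chymase, which makes angiotensin II from angiotensin I, and for tryptase, which cleaves a receptor on neighbouring cells.

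The pulmonary veins (PVs) of 3 rats after bilateral pulmonary vein banding (BPVB) and of 3 rats after sham surgery were profiled by bulk RNA-seq, with 1 library per rat. All 6 were wild-type Sprague-Dawley (SD) rats that were operated on at postnatal day 1 under cooling on ice, and the PVs of the right upper lobe were taken at postnatal day 21. In the BPVB group a suture was tied around the right and the left PVs over a needle that set the remaining width, and in the sham group the chest was opened and the suture was passed and withdrawn without a band. A library holds the whole piece of tissue, with vessel wall, heart muscle sleeve, nerves and any adhering lung. For rises and falls alike, a change in the number of cells of a type and one in RNA per cell cannot be told apart.

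The authors deposited FPKM, which is the number of sequenced fragments of a gene scaled to the gene's length and the library's size. The library sizes, recovered from the whole-number steps of the FPKM, were between 26078189 and 29725808 fragments in the BPVB group and between 23439506 and 23821184 in the sham group. Differences were tested with limma on log2(FPKM + 0.5), and a gene was called when its adjusted p (Benjamini-Hochberg over 15150 genes) was under 0.05. A log2 fold change is the BPVB mean minus the sham mean on that scale, and the added 0.5 makes it smaller for genes with low expression. The median log2 fold change of all 15150 genes was 0.02.

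Of the 10 mast cell genes, 4 were called higher in the BPVB group, where 17.2% of all genes tested were, and 1 was called lower, where 14.3% of all genes tested were. The 4 genes that rose were the granule proteases Cpa3, Cma1, Tpsb2 and Tpsab1, each at 2.29 to 3.21 times its mean FPKM in the sham group. The gene that fell was the transcription factor Gata2, at 0.777 times. Kit, both subunits of the IgE receptor in the list, the histamine-forming enzyme Hdc and the prostaglandin D2 synthase Hpgds were not called. The median log2 fold change of the 10 genes was 0.51, and it was 0.31 without sham replicate 2 and between 0.33 (pseudocount of 1) and 0.93 (genes whose mean FPKM reached 1, which leaves 7 of the 10) over the other settings. A differentially expressed gene (DEG) by the thresholds of the study is one that is called and whose log2 fold change is also larger than 1 in size. By these thresholds Cpa3, Cma1 and Tpsab1 were DEGs when 0.5 was added to the FPKM, and Cpa3 alone when 1 was added (Cma1 0.95, Tpsab1 0.96), and 2.24% of all genes tested were DEGs in that direction. None of the 10 was a DEG in the other direction (limma; Gata2 was the 1 gene with an unadjusted p under 0.05 and a negative log2 fold change), where 1.03% of all genes were.

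**Figure D1:**
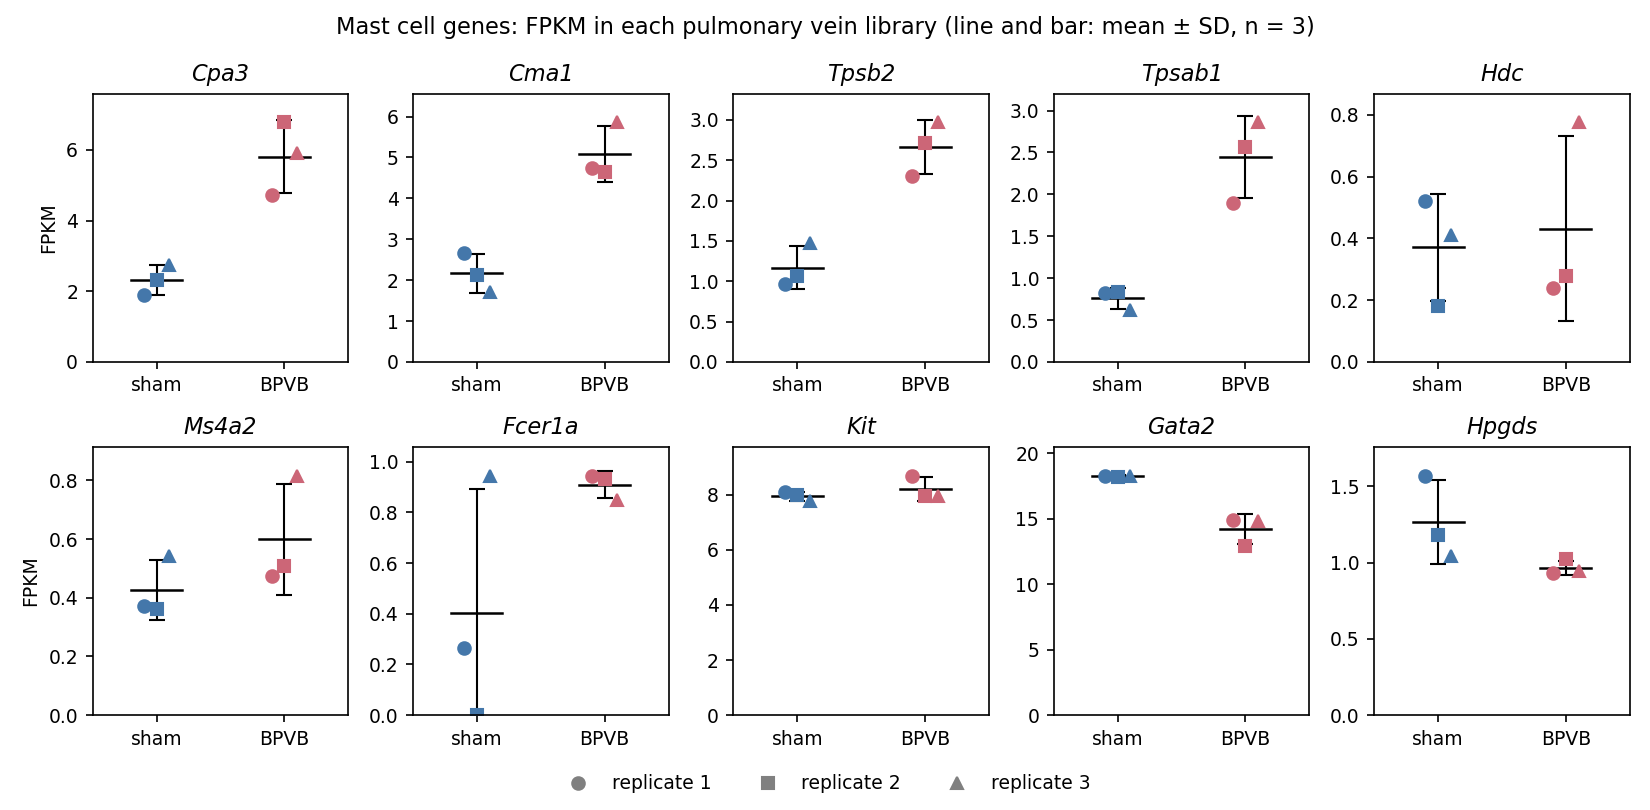
FPKM (vertical axes, each from 0) of the 10 mast cell genes in the 3 sham (blue) and 3 BPVB (red) libraries, with symbols for replicates 1, 2 and 3 and a line and bar for the mean and SD. The 3 BPVB values lie above all sham values for Cpa3, Cma1, Tpsb2 and Tpsab1 and below them for Gata2 and Hpgds; the lower bar of Fcer1a in the sham group is cut at 0.

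The granule proteases are the most abundant proteins of the mast cell granule. Cpa3 (NCBI Gene 54242) encodes mast cell carboxypeptidase A, which trims amino acids from the end of peptides. Its FPKM was 4.72, 6.78 and 5.91 in BPVB replicates 1, 2 and 3 and 1.89, 2.33 and 2.73 in sham replicates 1, 2 and 3. The lowest BPVB library thus stood above the highest sham library. The mean was 5.8 ± 1.0 in the BPVB group against 2.32 ± 0.42 in the sham group (SD, n = 3 each), a ratio of 2.5. Limma gave a log2 fold change of 1.16 with a standard error of 0.15 and an adjusted p of 0.00048, which placed Cpa3 at position 244 of 15150 genes ordered from the largest rise.

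Cma1 (NCBI Gene 25627) encodes chymase, a serine protease of the granule. Its FPKM was 4.74, 4.65 and 5.86 in the BPVB rats and 2.66, 2.13 and 1.71 in the sham rats, again with no overlap. The BPVB mean was 2.35 times the sham mean, with a log2 fold change of 1.07 ± 0.15 (standard error) and an adjusted p of 0.00066 by limma.

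Tpsb2 (NCBI Gene 29268) and Tpsab1 (NCBI Gene 54271) encode tryptases, proteases that cut after lysine or arginine and are held in the granule as tetramers by heparin. The FPKM of Tpsb2 was 2.31, 2.71 and 2.97 in the BPVB rats and 0.967, 1.06 and 1.47 in the sham rats. That of Tpsab1 was 1.9, 2.57 and 2.86 against 0.825, 0.837 and 0.617. For both genes every BPVB library was above every sham library. Their log2 fold changes by limma were 0.93 ± 0.15 and 1.21 ± 0.16 (standard errors), with adjusted p of 0.0015 and 0.00045. The counting could have split reads between these related genes, so the level of each alone is less certain. Tpsb2 fell short of the DEG threshold on the fold change, and reached 1.14 when 0.1 was added to the FPKM and 0.76 when 1 was added.

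The depth behind these values was modest. The smallest whole numbers of fragments that the FPKM allow were 196, 275 and 273 for Cpa3 in the BPVB rats and 70, 85 and 101 in the sham rats. For Cma1 they were 124, 119 and 171 against 62, 49 and 40, and for Tpsb2 67, 77 and 96 against 25, 27 and 38. For Tpsab1 they were 31, 41 and 52 against 12, 12 and 9, but its true numbers may be a common multiple of these, so its depth is less certain than that of the others.

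Added together, the 4 proteases reached 13.7, 16.7 and 17.6 FPKM in the BPVB rats and 6.34, 6.36 and 6.52 in the sham rats. The sham libraries lay close to each other in this sum (SD 0.099) while the BPVB libraries were more spread (SD 2.1). The proportions among the 4 were not tested, and they varied between libraries. The ratio of Cpa3 to Cma1 was 0.997, 1.46 and 1.01 in the BPVB rats and 0.712, 1.09 and 1.59 in the sham rats. These values overlap.

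The promoters of these 4 genes are shown because the genes rose together. The sequences are those of RefSeq on build GRCr8, from 250 bases before to 50 bases after the annotated start, read 5′ to 3′ on the strand of the gene. Capitals mark matches to a GATA motif on either strand, to an E-box on either strand or to TATAAA on the strand of the gene. The GATA motif searched was AGATA followed by A or G, or the same letters with T in place of the first A, and the E-box was CACGTG or the same letters with T in place of the second C. GATA motifs are the letters that GATA factors such as GATA2 bind, and E-boxes of these letters are bound by MITF, a factor of the mast cell lineage. None of the marked matches overlap. The window is chr2:104673188-104673487 (minus strand) for Cpa3, chr15:33390084-33390383 (minus strand) for Cma1, chr10:14886060-14886359 (plus strand) for Tpsb2 and chr10:14867253-14867552 (minus strand) for Tpsab1.
Cpa3: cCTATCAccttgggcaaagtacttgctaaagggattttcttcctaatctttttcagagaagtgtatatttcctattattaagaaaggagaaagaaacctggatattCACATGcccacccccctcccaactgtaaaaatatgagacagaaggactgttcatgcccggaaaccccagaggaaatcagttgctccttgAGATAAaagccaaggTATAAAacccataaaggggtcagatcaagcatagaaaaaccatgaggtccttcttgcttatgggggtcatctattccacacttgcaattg
Cma1: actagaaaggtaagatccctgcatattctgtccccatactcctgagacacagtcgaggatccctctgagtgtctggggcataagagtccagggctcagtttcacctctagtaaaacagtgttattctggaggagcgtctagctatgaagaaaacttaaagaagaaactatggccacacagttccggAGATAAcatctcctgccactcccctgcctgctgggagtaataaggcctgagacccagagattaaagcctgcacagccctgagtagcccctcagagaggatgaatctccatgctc
Tpsb2: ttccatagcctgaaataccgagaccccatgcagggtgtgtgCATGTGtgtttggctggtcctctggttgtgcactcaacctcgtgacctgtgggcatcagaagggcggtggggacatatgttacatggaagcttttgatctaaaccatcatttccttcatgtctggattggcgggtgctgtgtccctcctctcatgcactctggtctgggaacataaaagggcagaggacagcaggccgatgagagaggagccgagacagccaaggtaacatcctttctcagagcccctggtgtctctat
Tpsab1: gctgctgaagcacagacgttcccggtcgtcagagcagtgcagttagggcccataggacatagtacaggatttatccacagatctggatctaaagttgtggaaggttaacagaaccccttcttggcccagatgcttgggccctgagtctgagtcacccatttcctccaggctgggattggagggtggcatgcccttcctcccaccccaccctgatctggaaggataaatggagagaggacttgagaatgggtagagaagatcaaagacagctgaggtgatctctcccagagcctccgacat
In Cpa3 the letters AGATAA began 55 bases before the start, followed by TATAAA at 40 bases, and in Cma1 AGATAA began 64 bases before the start. Tpsb2 held an E-box match 209 bases before the start, and none of these letters occurred in the window of Tpsab1. A promoter was found for 8 of the 10 mast cell genes. A GATA motif was present in 3 of the 8 (Cpa3, Cma1 and Fcer1a) and in 29.9% of the 27457 promoters of this length, an E-box in 3 of the 8 (Cpa3, Tpsb2 and Fcer1a) and in 19.5%, and TATAAA in 2 of the 8 (Cpa3 and Fcer1a) and in 9.08%. These matches are descriptions of the letters and not of binding.

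The IgE receptor has an alpha subunit that binds IgE (Fcer1a), a beta subunit that amplifies the signal (Ms4a2) and a gamma chain (Fcer1g) that other receptors share. Fcer1a (NCBI Gene 25047) had 0.946, 0.934 and 0.849 FPKM in the BPVB rats and 0.265, 0 and 0.946 in the sham rats. The BPVB libraries were alike, whereas the sham libraries spread from 0 in replicate 2 to the level of the BPVB group in replicate 3. In fragments these were 28, 27 and 28 against 7, 0 and 25, and the 0 of sham replicate 2 allows up to 3 fragments, or 0.115 FPKM, by counting error alone. The fitted difference of 0.78 in log2 (standard error 0.33, 95% interval 0.04 to 1.52) had an adjusted p of 0.10 (limma). This call depended on the libraries kept and on the method. Without sham replicate 3 the log2 fold change was 1.19 and the adjusted p 0.0047 (limma). Without sham replicate 2 the log2 fold change was 0.42 (adjusted p = 0.28, limma). With limma-voom on the recovered fragments the adjusted p was 0.03.

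Ms4a2 (NCBI Gene 25316) had 0.473, 0.508 and 0.817 FPKM in the BPVB rats and 0.371, 0.363 and 0.543 in the sham rats. The groups overlapped, since sham replicate 3 exceeded BPVB replicates 1 and 2. Limma gave a log2 fold change of 0.24 (95% interval -0.14 to 0.62, adjusted p = 0.31), on a scale where the added 0.5 is larger than the sham mean of the gene (0.426 FPKM).

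Hdc (NCBI Gene 24443), histidine decarboxylase, makes histamine. It had the lowest mean FPKM of the 10 genes in both groups, with 0.24, 0.278 and 0.776 FPKM in the BPVB rats and 0.521, 0.182 and 0.412 in the sham rats. BPVB replicate 3 was the highest library and sham replicate 2 the lowest, and the groups overlapped across most of their range. Between 10 and 54 fragments lay behind each value. The log2 fold change was 0.07 (95% interval -0.48 to 0.62, adjusted p = 0.86, limma), and its sign turned to -0.02 after quantile normalization, to -0.18 with BPVB replicate 3 left out and to -0.10 with sham replicate 2 left out.

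Kit (NCBI Gene 64030) encodes the receptor for stem cell factor, which mast cells keep through life and which melanocytes and some endothelial cells also make. Its FPKM was 8.69, 7.95 and 7.94 in the BPVB rats and 8.08, 7.98 and 7.75 in the sham rats. The groups overlapped, and the means of 8.19 ± 0.43 and 7.94 ± 0.17 (SD, n = 3 each) differed by less than the SD of the BPVB group. The log2 fold change was 0.04 with a 95% interval from -0.11 to 0.2 (adjusted p = 0.69, limma). Of the 5 mast cell genes not called, it had the narrowest interval, with at least 967 fragments in each library. The ratio of Cpa3 to Kit was 0.544, 0.853 and 0.744 in the BPVB rats and 0.234, 0.292 and 0.352 in the sham rats, with no overlap.

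Gata2 (NCBI Gene 25159) encodes a transcription factor that blood progenitors, mast cells and endothelial cells use. It had the highest FPKM of the 10 genes, with 14.9, 12.9 and 14.8 in the BPVB rats and 18.3, 18.2 and 18.3 in the sham rats. All 3 BPVB libraries were below the sham libraries, which were within 0.062 FPKM of each other by SD. Limma gave a log2 fold change of -0.36 ± 0.065 (standard error, adjusted p = 0.0031), and it stayed between -0.39 and -0.29 over the 16 alternatives. In the markers of endothelial cells, 7 of 10 genes were called lower (limma), beside 14.3% of all genes tested. This number was 5 to 8 over the alternatives, with Tek and Erg lost in several. None was called higher, beside 17.2%, and the other 3, Kdr, Egfl7 and Vwf, also had negative values. The median log2 fold change of the 10 markers was -0.17. Their summed level was 1300 to 1320 FPKM in the BPVB rats against 1480 to 1490 in the sham rats. The part of these cells in the fall of Gata2 was not tested.

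Hpgds (NCBI Gene 58962), the hematopoietic prostaglandin D synthase, makes prostaglandin D2 in mast cells and in some macrophages and T cells. Its FPKM was 0.934, 1.02 and 0.942 in the BPVB rats and 1.57, 1.18 and 1.04 in the sham rats. The BPVB values all lay below the sham values, by a small margin at sham replicate 3. The log2 fold change of -0.26 had a 95% interval from -0.58 to 0.07 (adjusted p = 0.21, limma). Across the 10 genes, 4 had all BPVB values above the sham values and 2 had all below, where 25.2% and 20.5% of all genes tested did.

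**Figure D2:**
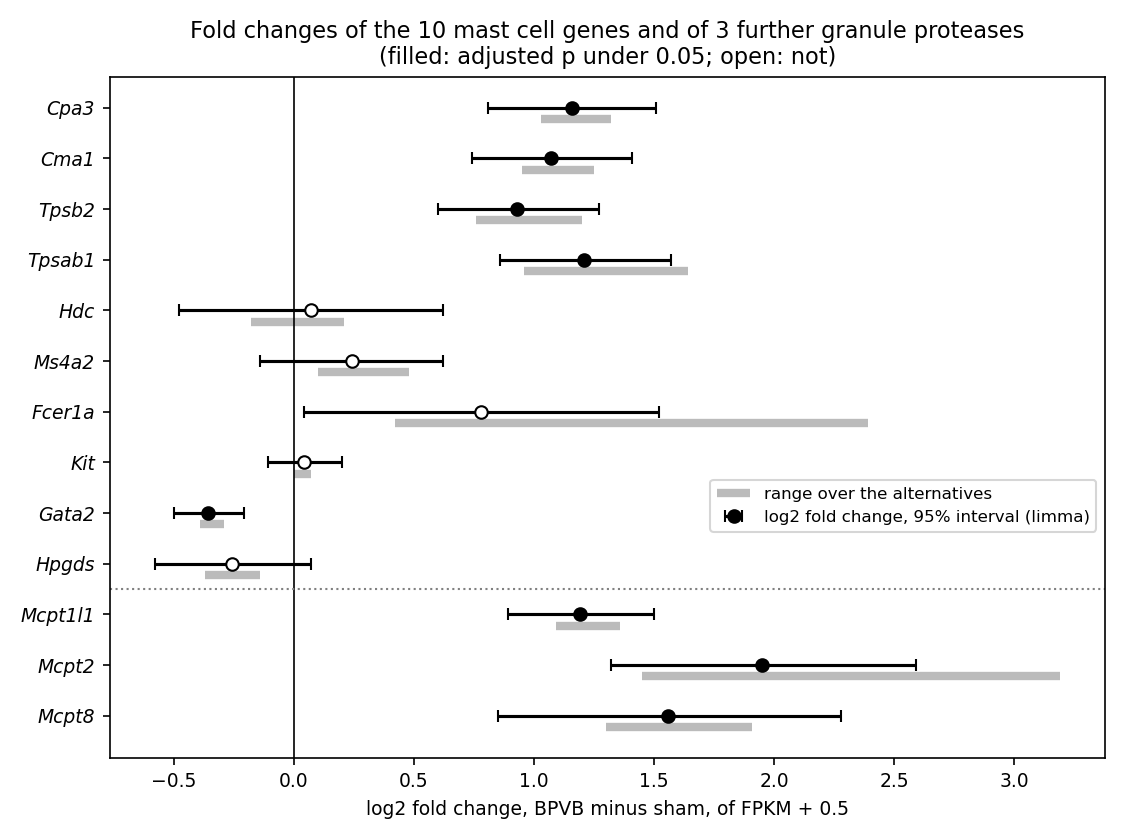
Log2 fold change of FPKM + 0.5 (horizontal axis, BPVB minus sham) with its 95% interval from limma for the 10 mast cell genes and, below the dotted line, Mcpt1l1, Mcpt2 and Mcpt8, with grey bars for the range over the alternative settings. Filled circles mark an adjusted p under 0.05; the 4 proteases of the list lie between 0.93 and 1.21, Kit at 0.04 and Gata2 at -0.36.

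By FPKM, which is a level per length, Gata2 and Kit were the highest of the 10 genes in both groups, and their ranges over the 3 libraries were apart from each other and from the next gene. Cpa3 and Cma1 followed and did not differ beyond their spread in either group. In the BPVB group Tpsb2 and Tpsab1 came next and were not apart from each other. In the sham group Hpgds (1.26 ± 0.28 FPKM) stood between Cma1 and Tpsb2 (1.16 ± 0.27 FPKM), and its range overlapped that of Tpsb2, whereas in the BPVB group both tryptases stood above it. Ms4a2, Fcer1a and Hdc held the lowest places by mean in the sham group, where their ranges overlapped each other. The range of Ms4a2 was apart from Tpsab1 above it. That of Fcer1a was not, since its 0.946 FPKM in sham replicate 3 exceeded every sham value of Tpsab1 (0.617 to 0.837).

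Beyond the 10 genes, rat mast cells make further proteases, named Mcpt, that differ between the mast cells of connective tissue and those of mucosa. Of a list of 26 such proteases and other granule genes, 19 were in the table and 15 were tested. The others were not analysed here. A total of 4 were called higher and 4 lower, beside 17.2% and 14.3% of all genes tested, 7 were neither, and the median log2 fold change was 0.15. Mcpt1l1 (NCBI Gene 100360872), annotated as mast cell protease 1-like 1, was the most abundant of the mast cell proteases, with 15.1, 17.9 and 16.0 FPKM in the BPVB rats and 6.24, 5.87 and 8.75 in the sham rats. Every BPVB library was above every sham library, with a log2 fold change of 1.19 ± 0.13 (standard error, adjusted p = 0.00019, limma). It has close copies in the rat genome, between which the counting may have divided reads. The ratio of Cpa3 to Mcpt1l1 was 0.312, 0.379 and 0.368 in the BPVB rats and 0.304, 0.397 and 0.312 in the sham rats. The ratios overlapped, and both genes rose.

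Mcpt2 (NCBI Gene 29266) encodes the protease of mucosal mast cells. Its FPKM was 2.07, 4.02 and 1.63 in the BPVB rats and 0.113, 0.229 and 0.451 in the sham rats, where it rested on 2, 4 and 8 fragments. It rose with a log2 fold change of 1.95 (standard error 0.28, adjusted p = 0.00079, limma), which was 3.19 with limma-voom on fragments and 1.45 with a pseudocount of 1. Mcpt8 (NCBI Gene 29269), a protease whose mouse counterpart marks basophils, had 6.14, 2.95 and 7.02 FPKM against 0.798, 1.58 and 1.97. No BPVB library overlapped the sham libraries, and limma gave a log2 fold change of 1.56 ± 0.32 (standard error, adjusted p = 0.0053). Of the other markers of basophils and eosinophils, Epx, Il5ra and Ccr3 were at or near 0 in all libraries, and Prg2 and Siglec5 were not called (adjusted p of 0.91 and 0.48, limma).

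The other genes of this list that were called higher were Mcpt9, with 9, 4 and 6 fragments against 0, 1 and 0, and Cd63, a protein of granule membranes (log2 fold change 0.15, adjusted p = 0.012, limma). Mcpt9 was not called without sham replicate 1 or 3 (adjusted p of 0.066 for each, limma) or with limma-voom (0.085). Rab27b and Vamp8, which take part in granule release, had log2 fold changes of 0.32 and 0.20 and were not called (adjusted p of 0.10 and 0.11, limma), although Vamp8 was called higher without BPVB replicate 3 (0.31, adjusted p = 0.0014, limma). Slc18a2, the transporter that loads histamine and other amines into granules and nerve vesicles, had 0.312, 0.442 and 0.151 FPKM in the BPVB rats and 0.646, 0.861 and 0.645 in the sham rats. All BPVB values were lower (log2 fold change -0.61, adjusted p = 0.025, limma), but the call was lost when any 1 library other than BPVB replicate 2 was left out (adjusted p of 0.05 to 0.085, limma). Srgn, the core protein of the heparin-bearing granule proteoglycan, which most leukocytes and endothelial cells make, fell from 102 ± 6.5 to 85.1 ± 6.5 FPKM (SD, n = 3 each), with a log2 fold change of -0.26 (adjusted p = 0.011, limma). Rab27a, which docks granules at the membrane, fell by 0.24 on the log2 scale (adjusted p = 0.0087, limma), and Ctsc, the protease that activates granule proteases, by 0.21 (adjusted p = 0.0091, limma).

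**Figure D3:**
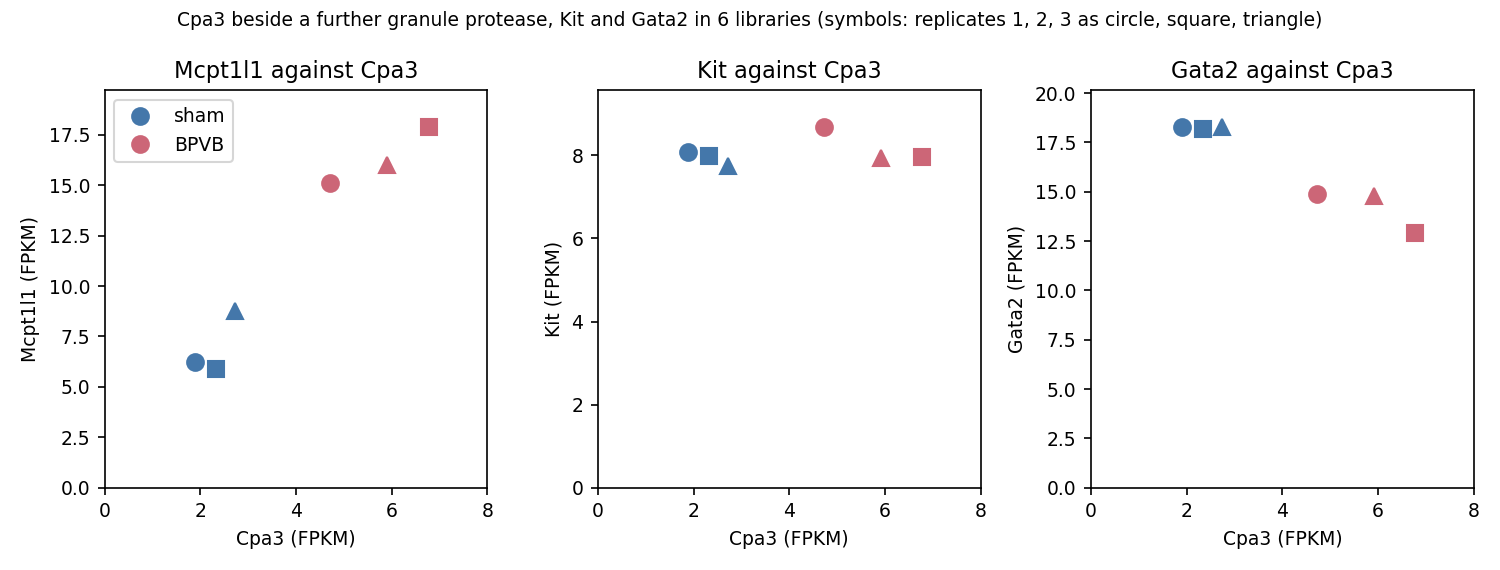
FPKM of Mcpt1l1, Kit and Gata2 (vertical axes) against FPKM of Cpa3 (horizontal axis) in the 3 sham (blue) and 3 BPVB (red) libraries, 1 symbol per library. The 3 BPVB libraries lie above the sham libraries in both Cpa3 and Mcpt1l1, which runs from 5.87 to 17.9 FPKM, while Kit stays between 7.75 and 8.69 and Gata2 is lower in the BPVB libraries.

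The signal of the IgE receptor passes through kinases and adaptors that other leukocytes use as well. Of 16 such genes tested, 7 were called higher, beside 17.2% of all genes, and 2 lower, near the 14.3% of all genes (median log2 fold change 0.43). Fcer1g, the gamma chain, rose from 17.9 ± 0.9 to 28.8 ± 2.4 FPKM (SD, n = 3 each), with 30.5, 29.9 and 26.0 in the BPVB rats and 18.4, 16.9 and 18.5 in the sham rats. The kinase gene Syk had a log2 fold change of 0.44 (adjusted p = 0.02, limma), which was not called without BPVB replicate 2 or 3 or sham replicate 2 or 3 (adjusted p of 0.052 to 0.071, limma) or after quantile normalization (0.065). Ptpn6, a phosphatase that restrains such signals, had one of 1.00 (adjusted p = 0.0023, limma). Lyn, the kinase that starts the signal, was lower (-0.31, adjusted p = 0.0021, limma), as was Plcg1 (-0.20, adjusted p = 0.0054, limma). Markers of macrophages, which also make Fcer1g and Syk, were called higher in 8 of 9 genes tested (7 without BPVB replicate 2 or 3 or sham replicate 1 or 2, where C1qb had an adjusted p of 0.053 to 0.055, limma), and their summed level was 714 to 732 FPKM in the BPVB rats against 253 to 260 in the sham rats. Most of this sum is Lyz2, a lysozyme gene that alveolar type II cells of the lung also make, and the other 8 markers summed to 129 to 140 against 89.4 to 95.6 FPKM, a ratio of means of 1.44. The part of macrophages in these rises was not tested.

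Of 12 tested genes of the Kit axis and of mast cell growth and recruitment, 7 were called higher, beside 17.2% of all genes, and 2 lower, near the 14.3% of all genes (median log2 fold change 0.38). Kitlg, which encodes stem cell factor, the ligand of KIT, had 33.5, 30.2 and 30.9 FPKM in the BPVB rats and 37.1, 36.4 and 37.5 in the sham rats. It was lower in all 3 BPVB libraries (log2 fold change -0.23, standard error 0.048, adjusted p = 0.0063, limma). Mitf rose by a log2 fold change of 0.50 (adjusted p = 0.013, limma). The largest rises of this list were those of Ccl11, the chemokine eotaxin (2.42, adjusted p = 1.2e-06, limma), and of Csf2rb, the shared receptor chain for interleukin-3, interleukin-5 and GM-CSF (1.3, adjusted p = 2.2e-05, limma). Il33, an alarmin that acts on mast cells, fell (-0.31), whereas its receptor gene Il1rl1 was called higher (0.51, adjusted p = 0.035, limma), a call lost after quantile normalization (0.085) and when any 1 library other than BPVB replicate 2 was left out (adjusted p of 0.065 to 0.11, limma).

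In the list on histamine, 6 genes were tested, of which 1 was called higher and 1 lower, near the 17.2% and 14.3% of all genes. Aoc1, diamine oxidase, which breaks down histamine outside cells, was called higher (adjusted p = 0.0018, limma) and named after its value was seen. It rested on 40, 41 and 28 fragments with banding and on 0 in each sham library, where 0 allows up to 3 fragments per library. Slc29a4, a membrane transporter of amines, was lower (log2 fold change -0.44, adjusted p = 0.036, limma), a gene named after its value was seen. This call was lost whichever library was left out (adjusted p of 0.056 to 0.12, limma), with the replicate block (0.066) and with limma-voom (0.11). The histamine receptor genes Hrh1 and Hrh2 were not called, with adjusted p of 0.57 and 0.77 (limma), and Hrh3 and Hrh4 were below the filter on low expression.

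Of 12 tested genes on prostaglandin D2 and leukotrienes, 5 were called higher, beside 17.2% of all genes, and 1 lower, beside 14.3%. Without BPVB replicate 3 the number called higher was 2. Cysltr1, a leukotriene receptor gene, rose (log2 fold change 0.60, adjusted p = 0.0040, limma). Hpgd, which inactivates prostaglandins, was called higher (1.06, adjusted p = 0.021, limma), but not without BPVB replicate 2 or 3 (adjusted p of 0.054 and 0.074, limma). Ptgs2, the inducible cyclooxygenase, was called lower (-0.67, adjusted p = 0.019, limma), but not without BPVB replicate 1 or 3 or sham replicate 2 or 3 (adjusted p of 0.062 to 0.07, limma). Ptgs1, the constant one, was not called (-0.13, adjusted p = 0.23, limma). Ptgds, the other prostaglandin D synthase, had overlapping values (adjusted p = 0.92, limma), and the receptor gene Ptgdr2 had 6, 31 and 17 fragments against 3, 1 and 3 (adjusted p = 0.13, limma).

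Of 13 tested genes for substrates, receptors and inhibitors of chymase and tryptase, 5 were called higher, beside 17.2% of all genes, and 2 lower, near the 14.3% of all genes. Agt, angiotensinogen, rose from 1.9 ± 0.32 to 3.81 ± 0.25 FPKM (SD, n = 3 each), with a log2 fold change of 0.86 (adjusted p = 0.00088, limma). Among the receptor genes for angiotensin II, Agtr2 was lower (-0.86, adjusted p = 0.0019, limma). Agtr1a was called higher (0.26, adjusted p = 0.03, limma), but not after quantile normalization (0.053) or without BPVB replicate 2 or 3 or sham replicate 1 or 3 (adjusted p of 0.058 to 0.092, limma). Ace, the other enzyme that makes angiotensin II, was not called (-0.12, adjusted p = 0.085, limma), though it was called lower after median-of-ratios scaling (0.039), with limma-voom (0.0045) and without sham replicate 3 (0.032), and neither was F2rl1, the receptor that tryptase cleaves (-0.09, adjusted p = 0.71, limma). Slpi, an inhibitor of serine proteases, rose the most (1.45, adjusted p = 0.0019, limma), and Edn1, endothelin-1, was called lower (-0.17, adjusted p = 0.027, limma). The call of Edn1 was lost as TPM (0.07), with limma-voom (0.06) and without BPVB replicate 2 or 3 or sham replicate 1 or 2 (adjusted p of 0.072 to 0.085, limma).

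GATA factors act with partners in blood and heart cells. Of 16 tested genes in that list, 5 were called higher, beside 17.2% of all genes, and 1 lower, beside 14.3%. Cebpa, active in myeloid cells, rose the most (log2 fold change 1.29, adjusted p = 0.00011, limma). Runx1, a factor of blood cells, came next (0.81, adjusted p = 0.016, limma) and was not called without BPVB replicate 1 or 3 or sham replicate 1 (adjusted p of 0.055 to 0.058, limma). Erg, an endothelial factor, was called lower (-0.17, adjusted p = 0.029, limma), but not as TPM (0.07) or without BPVB replicate 1 or 3 or sham replicate 1 or 2 (adjusted p of 0.068 to 0.095, limma), and 2 or 3 genes of the list were called lower with other scalings and limma-voom. Gata1, which mast cells also use, had 0.716 ± 0.34 FPKM in the BPVB group and 0.576 ± 0.21 in the sham group (SD, n = 3 each) and was not called (adjusted p = 0.64, limma). Lmo2 (0.12, adjusted p = 0.16, limma) and Tal1 (-0.25, adjusted p = 0.063, limma) were not called either, though Tal1 was called lower after median-of-ratios scaling (0.043) and quantile normalization (0.035) and with limma-voom (0.01).

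**Figure D4:**
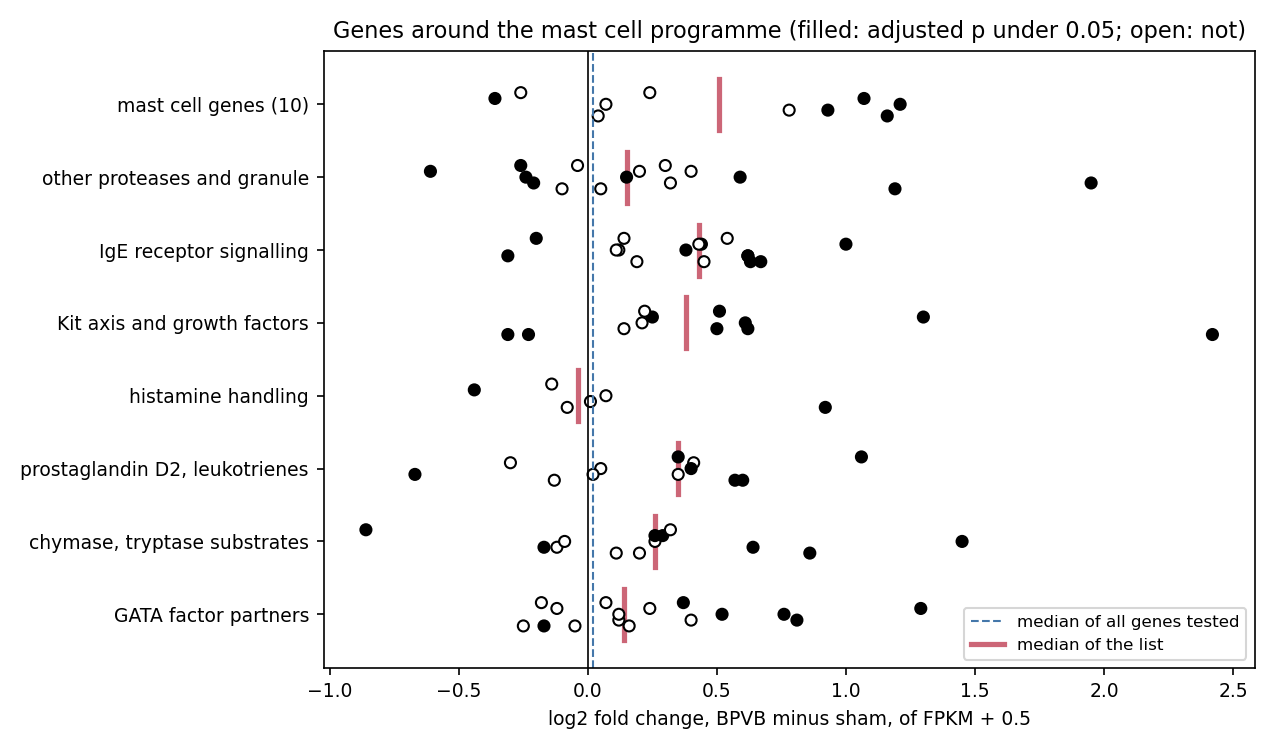
Log2 fold change of FPKM + 0.5 (horizontal axis, BPVB minus sham) of each tested gene in the 10 mast cell genes and in 7 lists around them, with filled circles for an adjusted p under 0.05, red bars for the median of each list and a dashed line for the median of all genes tested. Among the mast cell genes the 4 proteases lie near 1, Fcer1a, which was not called, lies at 0.78 and the others are lower, and the medians of the lists run from -0.04 for histamine handling to 0.51 for the mast cell genes, a median that moves between 0.31 and 0.93 with the setting.

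Markers of other cells of the tissue differed between the groups as well. Their counts stand beside 17.2% of all genes tested called higher and 14.3% called lower. In markers of lung epithelium, 10 of 10 genes were called higher, and their sum was 639 to 683 FPKM in the BPVB rats against 74.7 to 77.1 in the sham rats. Of these, Abca3 was not called with the replicate block (adjusted p = 0.065, limma), without the filter on low values (0.053) or without BPVB replicate 1 or 3 or sham replicate 1 or 3 (0.089 to 0.11). Markers of heart muscle were called lower in 6 of 8 genes and higher in 2, with sums of 15500 to 15900 against 21300 to 21700 FPKM. Fibroblast markers were called higher in 4 of 8 and lower in 2, with sums of 5920 to 5950 against 5350 to 5360 FPKM. Those of capillary endothelium were called lower in 5 of 8 and higher in 3. No marker measured in any of these lists was at 0 in all libraries. The part of adhering lung or of heart muscle in the rise of the proteases was not tested.

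Among other leukocytes, 4 of 7 tested neutrophil markers were called lower, beside 14.3% of all genes tested. None was called higher, beside 17.2% (limma, and none with a positive value had an unadjusted p under 0.05). The sums of the neutrophil markers were 6.83 to 10.4 against 21.8 to 24.6 FPKM. Of 8 markers of T and B cells, 1 was called higher (Cd4, which rat macrophages also make), beside 17.2% of all genes tested. None was called lower by limma (Cd3d, a T cell gene, was lower at an unadjusted p of 0.021), beside 14.3%. The sums of these 8 markers were 12.7 to 13.6 against 9.78 to 10.7 FPKM. The higher sum came from Cd4, and the other 7 markers summed to 4.24 to 5.08 FPKM in the BPVB rats and 4.52 to 6.37 in the sham rats, which overlap. Cd3d was called lower without the filter on low values (adjusted p = 0.025, limma) and after quantile normalization (0.042). Without sham replicate 3 its adjusted p was 0.05 after rounding (limma), and 1 gene of the list was called lower there. Dct and Pmel, genes of melanocytes, which carry KIT, stayed at or below 0.3 FPKM in each library. Dct, which was below the filter on low expression, had 0, 1 and 0 fragments in the BPVB rats and 5, 3 and 6 in the sham rats.

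**Figure D5:**
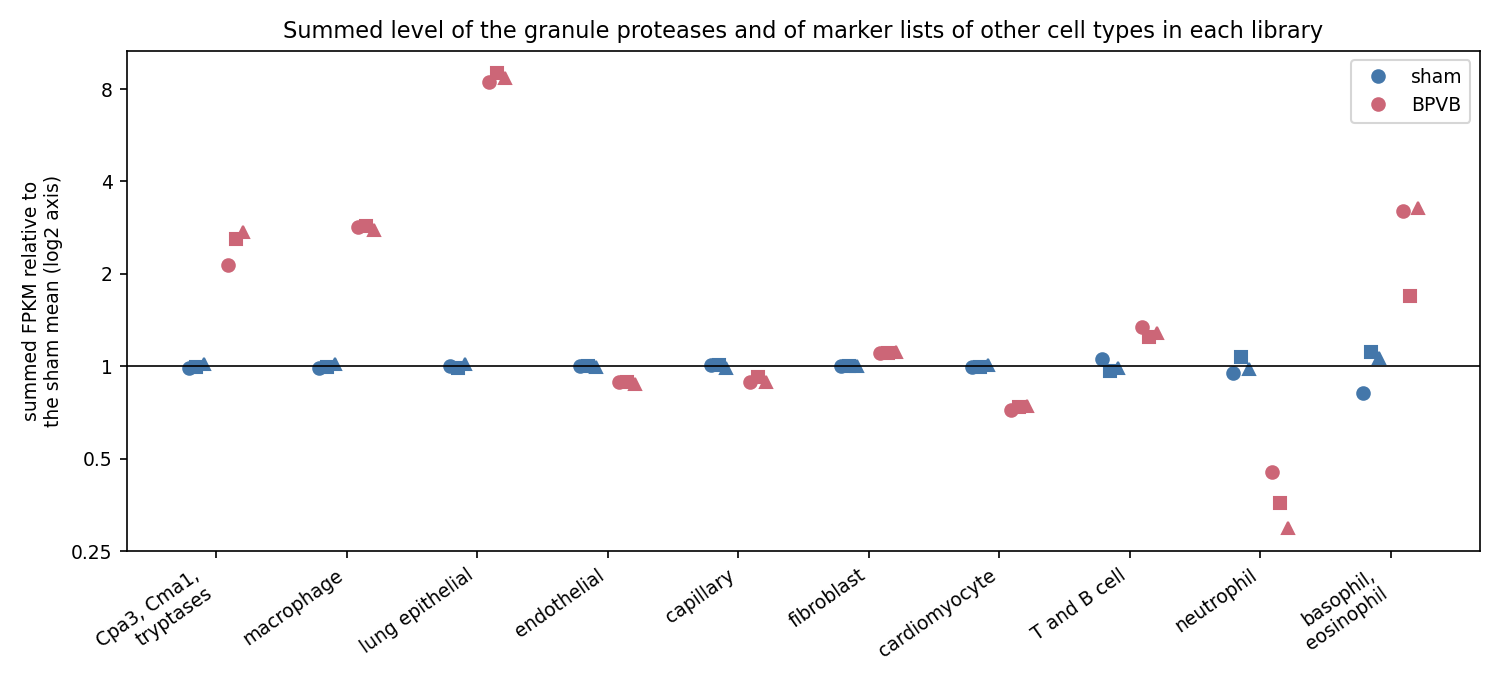
Summed FPKM of Cpa3, Cma1, Tpsb2 and Tpsab1 and of marker lists of other cell types in each library, divided by the mean of the sham libraries (vertical axis, log2), with sham in blue and BPVB in red. The protease sum and the macrophage, lung epithelial, fibroblast, T and B cell, and basophil and eosinophil sums lie above the sham libraries. Those of heart muscle, endothelium, capillary endothelium and neutrophils lie below. The macrophage sum consists mostly of Lyz2, and Mcpt8 is the largest part of the basophil and eosinophil sum. The T and B cell sum lies above through Cd4.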

How the data were processed

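Bulk RNA-seq of 6 pulmonary veins (3 BPVB, 3 sham) was used. By the study's methods, the authors trimmed reads with fastp, mapped them with HISAT and counted them with HTSeq-count, whereas the submitters' processing notes name HISAT2 2.0.5, StringTie 1.3.3b, featureCounts 1.5.0-p3 and DESeq2 1.20.0. The deposited values are FPKM, and the genome build is not given in the sources used here. No column went unused (0). The library of each column was taken from its letter and number, which match the sample titles.

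FPKM were tested with limma 3.58.1 (R 4.3.3; lmFit, eBayes with a trend, two-sided) on log2(FPKM + 0.5), over 15150 genes whose mean FPKM reached 0.1. DESeq2, which the study used, was not run. The deposited values are FPKM, and fragments recovered from them were used with limma-voom as an alternative. The procedure was tested on simulated data with known changes. Fragments were recovered from the whole-number steps of the FPKM for 100.0% of genes (tolerance 0.0001), and limits from counts cover counting error only. Variance over mean of fragments within pairs of one group was 4.96 to 5.92, so no library was a copy of another.

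The members and lists were chosen with earlier results of these data known, so no list was tested as a set. Named genes were the members, their direct partners and the 2 largest rises and falls called in each list whose mean FPKM reached 1. Some genes outside these rules, such as Ctsc, Cd63, Rab27b, Vamp8 and Il1rl1, were named as well. Alternatives were 2 pseudocounts, 2 filters, 3 scalings, a replicate block, robust eBayes, limma-voom on recovered fragments and each library left out. By the study's methods the libraries came from separate rats. Other steps were run in Python 3.11.15 (numpy 2.4.6, pandas 2.3.3, matplotlib 3.10.9). One list of markers is not reported here.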

Additional observations from a re-analysis of the deposited data

How the results depend on the processing

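Over the 16 alternatives, the 10 mast cell genes gave 157 values, of which 152 kept their direction and their side of the threshold, among them all values of Cpa3, Cma1, Tpsb2, Tpsab1 and Gata2. Fcer1a passed the threshold with limma-voom on fragments (log2 fold change 2.39) and when sham replicate 3 was left out, with a range of 0.42 to 1.19 over the libraries left out. Hdc turned negative after quantile normalization (-0.02), with BPVB replicate 3 left out (-0.18) and with sham replicate 2 left out (-0.10), and its highest value with a library left out was 0.21. The median of the 10 genes was 0.33 with a pseudocount of 1, 0.77 with 0.1, 0.71 as TPM, 0.84 with limma-voom and 0.93 over genes whose mean FPKM reached 1, where fewer of the 10 were tested, and ranged from 0.31 to 0.64 with each library left out. The number of DEGs that rose among them was 1 with a pseudocount of 1 and 5 with limma-voom. The cause of the other changes was not tested. Same-numbered libraries of both groups did not deviate together (correlations of 0.014 to 0.025), so the numbers do not pair them. With the replicate block, 4 of the 10 genes were called higher and 1 lower, as without it, and 4539 genes in all were called instead of 4775. Among the named genes outside the 10 that were called, the block removed the calls of Slc29a4 and Abca3. Marker lists of other cell types kept their counts within 2 calls over the alternatives. Among genes not called, signs changed for Ptgds after quantile normalization (-0.05), with limma-voom (-0.01) and with libraries left out (lowest -0.20, highest 0.41), and for 5 more genes with single libraries left out, over which the values ranged from -0.24 to 0.01 for Hrh1, -0.17 to 0.07 for Hrh2, -0.26 to 0.08 for F2rl1, -0.05 to 0.34 for Gata1 and -0.35 to 0.30 for Prg2. Hdc and Fcer1a rested on at most 54 fragments in any library, and whether more depth would narrow their intervals was not tested.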

Other observations

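Among the 12150 other genes whose mean FPKM reached 1, the 5 whose 6 values ran closest to those of Cpa3 were Ect2, Cenpa, Vipr1, Sgo2 and Hcar1, with root mean square differences of 0.113 to 0.129 between the centred log2(FPKM + 0.5) values. Ect2, Cenpa and Sgo2 encode proteins of cell division, Vipr1 a receptor for vasoactive intestinal peptide and Hcar1 a receptor for lactate. Mcpt1l1 came at position 7, with a difference of 0.138, and Tpsb2, placed among the same genes, would stand at position 15, Tpsab1 at 105 and Cma1 at 407. Kit would stand at 5750. With 6 libraries in separate groups, this likeness reflects the difference between the groups as much as the variation within them, and no test was made.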
